A study of Populus tremula x Populus alba with 6 samples.

Results

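The regions described here are the very deep peaks of a poplar chromatin immunoprecipitation sequencing (ChIP-seq) study, meaning peaks whose summit held 200 or more reads, outside a dense group of such peaks on chromosome 13. They were chosen by pileup, the read coverage at the summit, and every peak on chromosome 13 with a summit between 14600000 and 14899999 was left out. The rule kept 208 of 18975 peaks on the Populus alba chromosome set and 194 of 17040 on the Populus tremula set, 402 of 36015 in all. Peaks of 200 reads or more made up 1.75% of the P. alba list and 1.88% of the P. tremula list before the chromosome 13 peaks were removed.

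The study used mesophyll protoplasts, leaf cells without their walls, of the hybrid Populus tremula x Populus alba. All libraries came from cells that transiently expressed PtrbHLH011-10xMyc, a basic helix-loop-helix (bHLH) protein carrying a Myc epitope tag. Of the 6 libraries, 3 were anti-Myc ChIP libraries and 3 were input libraries with no antibody, numbered as biological replicates 1 to 3 in each group. The deposited peak lists, 1 for each parental chromosome set (subgenome), do not separate the libraries, so no value has a replicate error and library depth is unknown here.

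Proteins of the bHLH class bind DNA as pairs, typically at short E-box motifs, and can raise or lower transcription of nearby genes. In Arabidopsis, bHLH11 is known as a repressor in the network that controls iron uptake. A ChIP-seq peak is a place where reads pile up above a local background, and the ratio between them is the fold enrichment. Stretches of a genome where reads pile up in any library are well known, which is why peak callers scale each summit to its surroundings and why pileup and fold can rank the same peaks differently.

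Depth and background rose together across these peaks. The median pileup was 532 reads on P. alba, with 25th and 75th percentiles of 341 and 739, and 535 reads on P. tremula, with percentiles of 328 and 784. The background behind each fold, recovered from the deposited pileup and fold, had a median of 143.9 reads in the P. alba list and 154.0 in the P. tremula list. Over all peaks of each list that median was 0.989 and 0.985 reads, which is the lowest value in the list and is called the floor below. Across the very deep peaks Spearman's rho between pileup and background was 0.835 on P. alba (n = 208) and 0.840 on P. tremula (n = 194). Both quantities come from the same summit, and pileup chose the peaks, so these figures only describe them.

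The folds of the very deep peaks were modest and spread widely. Their median was 3.27 on P. alba and 3.21 on P. tremula, beside 3.52 and 3.53 over all peaks. Folds under 3 were held by 81 of the 208 P. alba peaks (38.9%) and 80 of the 194 P. tremula peaks (41.2%), beside 10.1% and 11.4% of all peaks. High folds were also present: 35 P. alba peaks (16.8%) and 20 P. tremula peaks (10.3%) reached 5, a level passed by 8.21% and 8.08% of all peaks. A fold of 10 was reached by 6 P. alba and 3 P. tremula peaks, beside 0.78% and 0.628% of the full lists. Every very deep peak had a −log10 q of 2 or more, which 39.8% and 40.1% of all peaks had. Since the rule used the same pileups, nothing is read from these shares.

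Within the group, the median fold was lower at greater depth on P. alba. It was 3.81 in the 88 P. alba peaks under 500 reads, 3.18 in the 94 from 500 to under 1000, 2.67 in the 20 from 1000 to under 2000 and 2.56 in the 6 of 2000 or more. On P. tremula the same bands held 87, 86, 16 and 5 peaks, with median folds of 3.31, 3.17, 3.22 and 2.70. The median background of these bands climbed from 82.8 to 1536 reads on P. alba and from 96.8 to 928 on P. tremula.

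**Figure D1:**
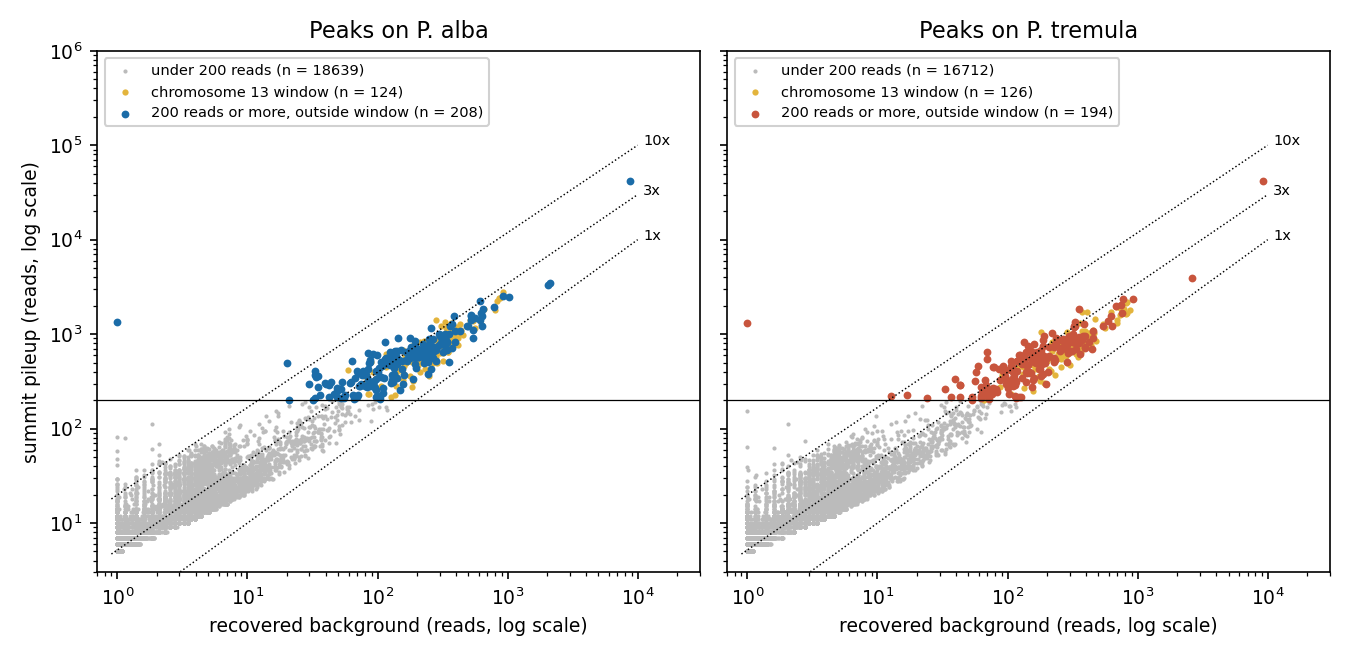
Summit pileup against recovered background for every peak of each list, both on log scales and in reads, with dotted lines at folds of 1, 3 and 10 and a solid line at 200 reads. Coloured points are the 208 P. alba and 194 P. tremula very deep peaks, yellow points the chromosome 13 peaks of 200 reads or more and grey points the shallower peaks outside that window. A single coloured point in each panel, with 1347 and 1299 reads, stands at the background floor, apart from all other very deep peaks.

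The deepest summit of both lists lay on chromosome 5, in a short run of very deep peaks. The P. alba peak (8707068 to 8707919) had a pileup of 41401 over a background of 8752 reads, a fold of 4.73. The P. tremula peak (8704170 to 8705019) had a pileup of 42188 over 9174 reads, a fold of 4.60. In both lists the summit lay 1316 bp upstream of the start of Potri.005G113500, its assigned gene. It also lay inside the body of a neighbouring gene, which spanned 8703016 to 8705824 on P. tremula. The peak was in the promoter class, which is the authors' own and reaches 3 kb to either side of a gene start.

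Another summit stood beside it in both lists, and 1 more on P. alba alone. The neighbour 1541 bp away on P. alba (8705952 to 8706059) held 3507 reads with a fold of 1.64. Its P. tremula partner, 1537 bp from the deepest summit (8703068 to 8703171), held 3907 reads with a fold of 1.502. P. alba had a further peak 1083 bp away (8706409 to 8706492) with 3301 reads and a fold of 1.61, and no P. tremula peak stood at that offset. No other peak within 20 kb of the deepest summit exceeded 8 reads in either list. The fold of 1.502 was the lowest of the 194 P. tremula peaks. The lowest on P. alba, 1.44, belonged to a distal peak on chromosome 11 (9647809 to 9647904, 508 reads).

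The next deepest peaks were spread over chromosomes 1, 4, 5, 11 and 13. On chromosome 4, a distal intergenic summit held 2508 reads in the P. alba list (15885788 to 15885899, fold 2.70) against 1679 in the other (15882578 to 15882686, fold 2.21). A distal peak on chromosome 13, outside the excluded window, held 2456 reads on P. alba (8145124 to 8145257) and 728 at its P. tremula partner. Another P. alba peak on chromosome 13 (9837600 to 9837963) held 1839 reads, covered 82.9% of a gene of 439 bp, and had no P. tremula partner. On chromosome 1, P. tremula had distal peaks of 1825 reads (40635435 to 40635691, fold 5.18) and 1555 reads (44908587 to 44908708, fold 2.51). The second of these was paired with a P. alba peak of 1420 reads. The tenth deepest on P. tremula lay on chromosome 5 (1345613 to 1345744, 1391 reads), and its P. alba partner held 1215. The remaining 4 of the 10 deepest in each list belonged to the chromosome 11 locus described below, with 1603 to 2248 reads on P. alba and 1978 to 2358 on P. tremula.

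One very deep peak differed from all others in its background. The peak over Potri.014G104800 on chromosome 14 held 1347 P. alba reads (8224506 to 8225967) and 1299 P. tremula reads (8222290 to 8223741), and its background was at the floor in both lists. Its folds of 678 and 655 follow from that. Among the other 207 P. alba peaks the lowest background was 20.3 reads and the highest fold 23.0, and among the other 193 P. tremula peaks these values were 12.6 reads and 16.3. It was also the longest very deep peak of either list, at 1462 and 1452 bp, against a median of 245 and 228 bp. Within 20 kb of its summit the other peaks, 5 on P. alba and 4 on P. tremula, held 6 or 7 reads. The tables give no name or function for this gene.

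After that peak, the next highest folds were 23.0 on P. alba and 16.3 on P. tremula. A distal P. alba peak on chromosome 14 (16387411 to 16387698) had 489 reads over 20.3, while its partner on the other subgenome had 564 reads over 179 and a fold of 3.14. A promoter peak on the same chromosome (16351777 to 16352091), with 410 reads, had a fold of 12.0 against 8.19 at its partner. On scaffold_966 (7384 to 7591) a P. alba fold of 10.9 stood against 7.78. The fifth P. alba peak, on scaffold_37 (247469 to 247613, fold 10.1), had no partner. On P. tremula, a promoter peak on chromosome 14 (16234948 to 16235148) had 221 reads over 12.6, with 295 reads and a fold of 7.15 at its partner. On chromosome 12 a promoter peak (7074808 to 7075012) reached a fold of 12.9 with 227 reads, while its P. alba partner had 607 reads and a fold of 6.04. The other 2 of the 5 highest P. tremula folds were 9.10 on scaffold_22 (1025346 to 1025711) and 8.35 on chromosome 14 (16410520 to 16410806). Without values per library these differences carry no error.

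The threshold of 200 reads did not fall at a gap in the values. Just inside it were P. alba peaks of 200 reads on chromosome 5 (fold 6.07) and chromosome 4 (fold 9.13) and 1 of 205 reads on chromosome 19 (fold 3.06). Just outside were peaks of 199, 195 and 193 reads, with folds of 2.89, 4.28 and 6.76. On P. tremula the values were 200, 208 and 209 reads inside, with folds of 3.73, 2.87 and 3.29, and 199, 197 and 196 outside, with folds of 3.20, 4.45 and 3.11.

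The very deep peaks lay in groups along the chromosomes. Joining peaks whose summits were within 20 kb of the next gave 111 loci on P. alba and 102 on P. tremula. Single peaks formed 77 and 68 of these loci. Loci of 3 or more numbered 20 and 14, and held 103 and 86 of the very deep peaks. Another very deep summit stood within 2 kb of 99 P. alba peaks (47.6%) and 94 P. tremula peaks (48.5%). A neighbouring peak of any depth lay within 1 kb of 44.7% of the very deep P. alba peaks and 42.8% of those on P. tremula, beside 15.6% and 13.9% of all peaks.

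The largest locus was on chromosome 11. It held 19 P. alba peaks, between 7180399 and 7219067, and 18 P. tremula peaks, between 7181629 and 7218500. Pileups ran from 324 to 2248 reads on P. alba and from 332 to 2358 on P. tremula, with median folds of 3.22 and 3.46. These peaks were assigned to 10 and 8 genes, 5 of the P. alba peaks to Potri.011G075100 alone, and 17 of them in each list were in the promoter class. The tallest summits lay at the left end on P. tremula, where 4 neighbouring summits held 1978 to 2358 reads, while the tallest P. alba summit was in the middle (7203049 to 7203622). P. alba summits toward the left end reached 1931 reads.

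On chromosome 9, 7 peaks of the P. alba list (2720003 to 2727829) and 8 of the P. tremula list (2719434 to 2727182) were spaced by a median of 902 and 823 bp, respectively. Their pileups were close in both lists, at 488 to 1085 reads and 532 to 1084. On chromosome 13, well away from the excluded window, 8 peaks in each list (P. alba 6387876 to 6400326, P. tremula 6387269 to 6399258) had the lowest median folds of these large loci, 2.07 in both. The chromosome 19 locus, with 9 peaks on P. alba (3183420 to 3199189) against 12 on P. tremula (3183347 to 3198915), ranged over 205 to 1080 and 216 to 901 reads. All the peaks at these 3 loci, in both lists, were in the promoter class.

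The remaining loci of 5 or more held 5 or 6 peaks each. Scaffold_21 carried 5 such P. alba peaks (435418 to 439093) next to 6 on P. tremula (435436 to 439211), which had median folds of 3.20 and 3.12. Another chromosome 5 locus, starting at 14790275 on P. alba, had 5 peaks in each list with medians of 3.50 and 2.77. Scaffold_81 carried 5 P. alba peaks (70606 to 73735), which were all the peaks of that list on it, and no very deep P. tremula peak. Chromosome 10 carried a run of 5 on P. tremula (8319779 to 8322156), next to 4 on P. alba (8320770 to 8323099).

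**Figure D2:**
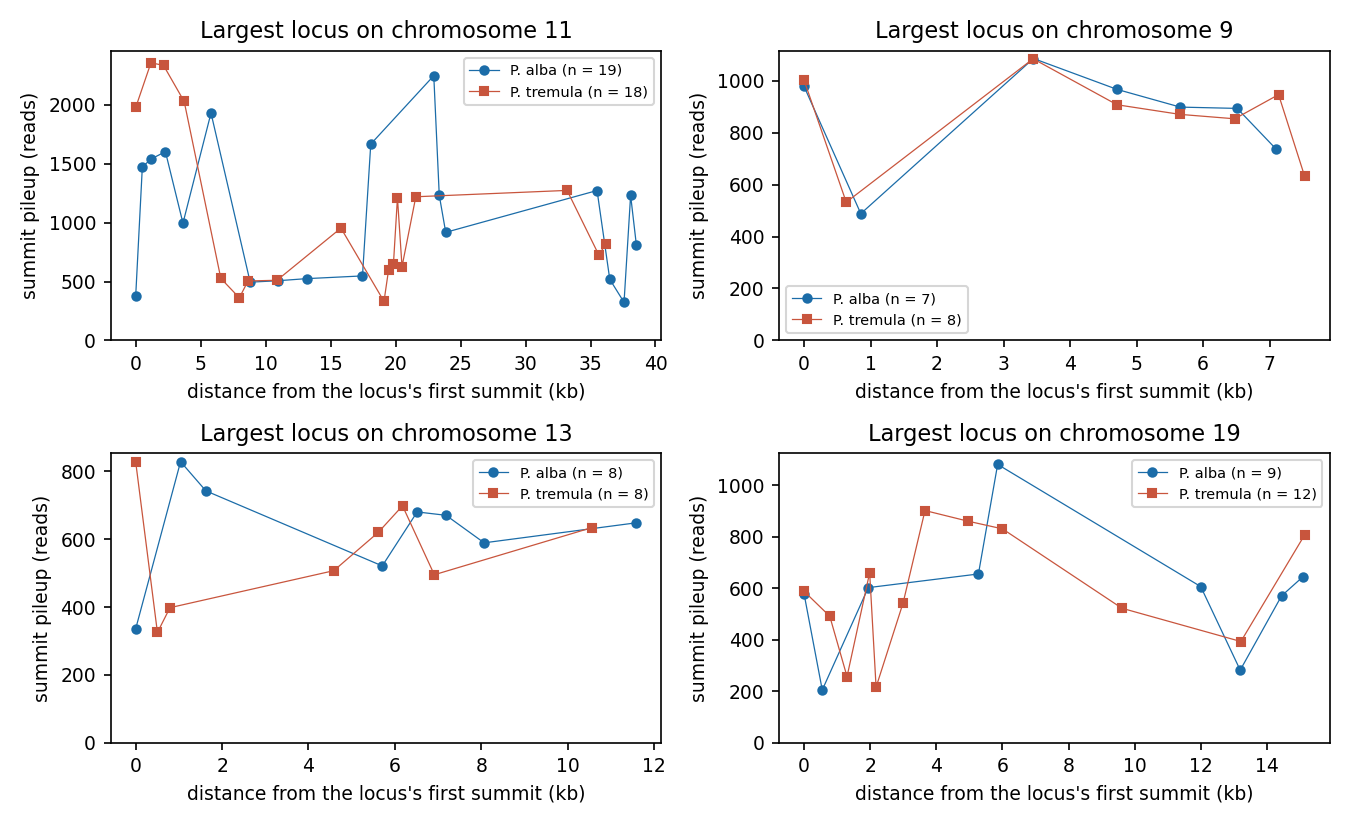
Summit pileup in reads against distance in kb from the first very deep summit of the locus, for the largest loci on chromosomes 11, 9, 13 and 19. Circles are P. alba and squares P. tremula peaks, and the thin lines only join neighbouring points of a list. Distances start at each list's own first summit. On chromosomes 11 and 13 these first summits are not partners, so the lists are offset there. The chromosome 9 summits span 488 to 1085 and 532 to 1084 reads, while the tallest summits of chromosome 11 stand at different distances in the 2 lists.

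Most very deep peaks were in the promoter class, a share that depended on the large loci. Of the P. alba peaks 141 (67.8%, exact 95% binomial interval 61.0 to 74.1%) and of the P. tremula peaks 133 (68.6%, 61.5 to 75.0%) were promoter peaks, beside 60.6% and 60.9% of all peaks. Taking only the deepest peak of each locus, the shares were 55.0% (45.2 to 64.4%) of 111 and 58.8% (48.6 to 68.5%) of 102. In loci of 3 or more the promoter class held 86.4% and 86.0%, and among single peaks 50.6% and 58.8%. The intervals cover counting error only and treat neighbouring peaks as independent, which they are not, and no test of enrichment was made.

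Most promoter peaks were annotated within 1 kb of a start. Such peaks made up 51.4% of the very deep P. alba peaks and 51.5% on P. tremula, beside 30.0% and 30.4% of all peaks. This annotation does not follow the summit: the deepest P. tremula peak had it with its summit 1316 bp from the start. Very deep peaks were also longer, with medians of 245 and 228 bp beside 124 and 128 bp over all peaks. The effect of peak length on these shares was not tested. With 1 peak per locus these shares were 41.4% (32.2 to 51.2%) and 36.3% (27.0 to 46.4%). Peaks at 2 to 3 kb were few, 5 and 7, or 2.40% and 3.61%, beside 2469 of 18975 peaks in the whole P. alba list. The share of summits no more than 250 bp from a start was 20.2% (15.0 to 26.3%) and 19.1% (13.8 to 25.3%), against 11.8% and 11.9% of all summits. With 1 peak per locus it was 18.9% (12.1 to 27.5%) and 15.7% (9.2 to 24.2%), and the second interval covers the share of all P. tremula summits. On P. alba the summit was upstream of the start of the assigned gene in 28.4%, inside that gene in 40.9% and past its end in 30.8%. On P. tremula these shares were 34.5%, 35.6% and 29.9%. Over all peaks they were 40.5%, 37.9% and 21.6% for P. alba and 41.0%, 37.5% and 21.4% for P. tremula. The share inside the assigned gene thus lay near that of the whole list. A summit inside some other gene, like the deepest on chromosome 5, was not counted as inside.

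Peaks inside genes but outside the promoter class were rare. Exon peaks numbered 1 in each list, beside 5.60% and 5.52% of all peaks, and intron peaks 0 and 2, beside 3.81% and 3.76%. The 0 of 208 allows an intron share of up to 1.76%, the upper end of its exact 95% interval. The exon peaks were at corresponding places on chromosome 7, in exon 3 of 3 of the same gene, with 558 P. alba reads (10268192 to 10268459) against 284 P. tremula reads (10266724 to 10266887). The P. tremula intron peaks, on chromosome 1 (30778290 to 30778535, 760 reads) and chromosome 9 (12895884 to 12896105, 783 reads), had folds of 3.20 and 4.91. Distal intergenic peaks numbered 62 (29.8%) and 55 (28.4%), near the 27.0% and 26.9% of all peaks, with median distances to the start of the assigned gene of 12057.5 and 8621 bp.

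**Figure D3:**
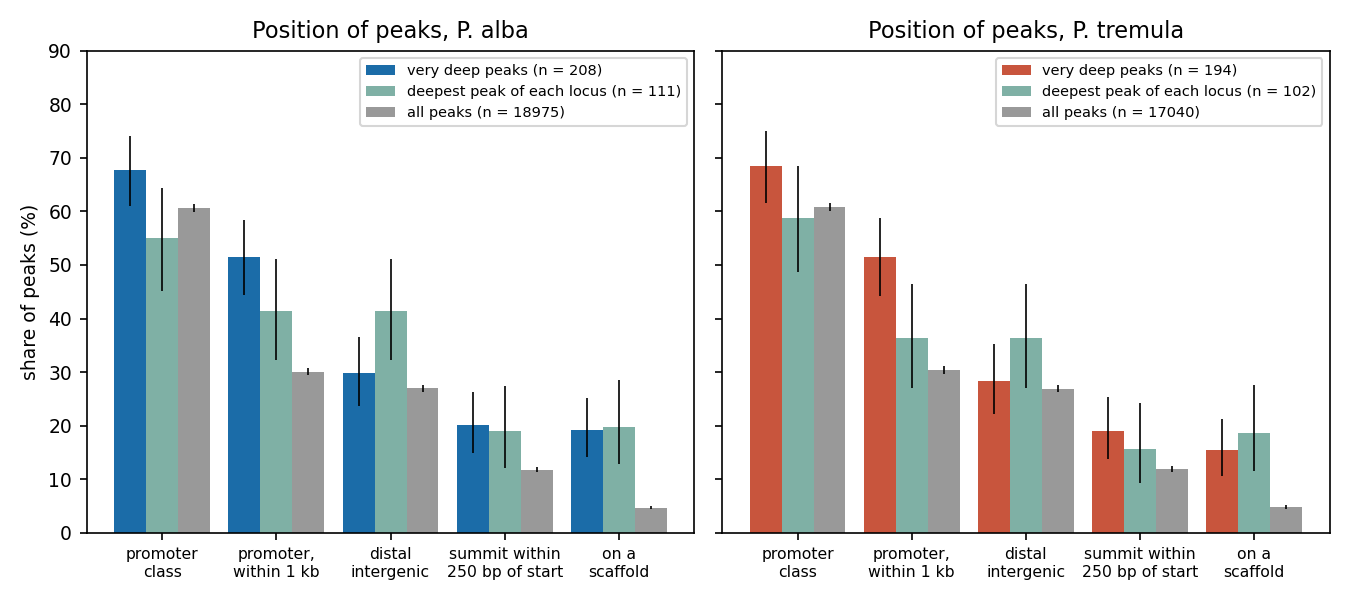
Share of peaks in percent, by position, for the very deep peaks, the deepest peak of each locus and all peaks of each list, with exact 95% binomial intervals as error bars. The promoter share is 67.8% and 68.6% over the very deep peaks and 55.0% and 58.8% with 1 peak per locus, on either side of the 60.6% and 60.9% of all peaks. The P. alba scaffold share is 19.2% and 19.8% in these forms, beside 4.70% of all P. alba peaks.

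The genes assigned to very deep peaks were short. The 208 P. alba peaks were assigned to 151 genes with a median length of 1068 bp, and the 194 P. tremula peaks to 139 genes with a median of 1077 bp. All genes with a peak had medians of 2612 and 2606 bp. Genes of 500 bp or less made up 27.2% (20.2 to 35.0%) and 24.5% (17.6 to 32.5%), beside 6.47% and 6.56% of all genes with a peak, and genes of 5000 bp or more 2.65% and 5.76%, beside 19.8% in each list. Counting only the gene of the deepest peak of each locus, the medians were 1132 and 1236 bp. A short gene leaves less room for a summit to be inside it and far from its start, so gene length and the position shares above are not separate observations.

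Some very deep peaks covered a whole short gene. This was so at 5 P. alba peaks, over genes of 115 to 549 bp, and at 2 P. tremula peaks, over genes of 141 and 222 bp, or 2.40% and 1.03%. Over all peaks it was so at 22 (0.116%) and 18 (0.106%). At least 50% of the gene was covered at 33 and 19 peaks. Several very deep peaks were assigned to the same gene in 38 P. alba and 36 P. tremula cases. Neither count has a counterpart over all peaks here, so nothing is read from them. The most very deep peaks at 1 gene were 7 and 6, assigned to Potri.T005700 on scaffold_21. Of these, 3 in each list were promoter peaks, and the other 4 and 3 were distal peaks 96761 to 158264 bp away on P. alba and 96747 to 98977 bp away on P. tremula, so that assignment to a gene is no measure of closeness.

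One gene length recurred. The commonest length among all genes with a peak was 249 bp, shared by 12 genes on P. alba and 11 on P. tremula. In each list 6 of these were assigned a very deep peak, beside 151 of 13403 and 139 of 12487 genes overall. No other length was shared by more than 2 genes with a very deep peak. These genes lay on chromosomes 5, 8 and 14 and on scaffold_22, and 5 of them had a very deep peak in both lists. Their 9 P. alba peaks held 213 to 847 reads with a median fold of 6.29, and their 7 P. tremula peaks 209 to 831 reads with a median fold of 6.20. Not all these peaks were close to the gene: 3 in each list lay over 3 kb from its start, the farthest at 9261 and 5304 bp. The length was noticed after the values were seen, and the sequences and functions of these genes were not analysed here.

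**Figure D4:**
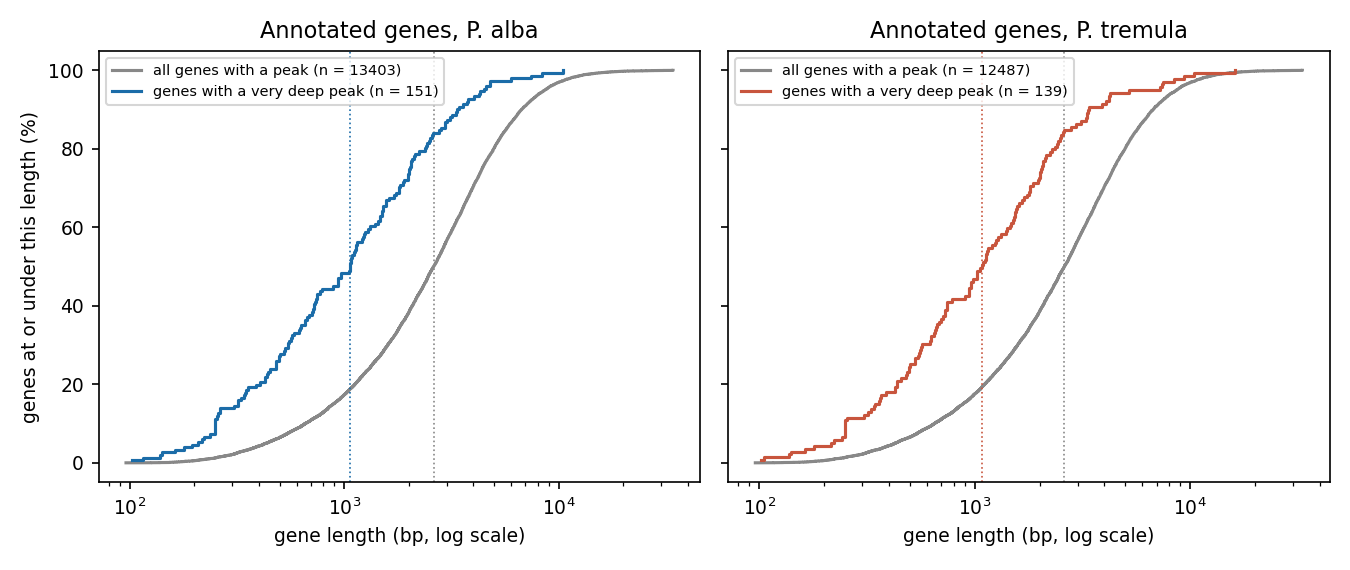
Cumulative share of genes in percent against gene length in bp on a log scale, for all genes with a peak (grey) and genes with a very deep peak (coloured), each gene once, with dotted lines at the medians. The coloured curves lie to the left, with medians of 1068 and 1077 bp against 2612 and 2606 bp, and step up at 249 bp.

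Scaffolds, the sequences not placed on a chromosome, carried many of the very deep peaks. They held 40 P. alba peaks (19.2%, 14.1 to 25.3%) on 15 scaffolds and 30 P. tremula peaks (15.5%, 10.7 to 21.3%) on 14, beside 4.70% and 4.82% of all peaks. With 1 peak per locus the shares were 19.8% (12.9 to 28.5%) and 18.6% (11.6 to 27.6%). Depth on scaffolds was like that on chromosomes, with median pileups of 512 against 548 reads in the P. alba list and 519 against 538 in the other. All 19 chromosomes carried at least 1 very deep peak in both lists. Chromosome 11 had the most, 22 and 21, which was 2.86% and 2.94% of its peaks. Chromosome 6 had the lowest shares, 3 of 1277 peaks (0.235%) and 2 of 1164 (0.172%).

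Very deep peaks were matched between the subgenomes by position. Peaks were paired when they were assigned to the same gene and the distances of their summits from its start differed by at most 100 bp. Pairs in which both peaks were very deep numbered 110, which is 52.9% of the P. alba and 56.7% of the P. tremula peaks. A partner of any depth was found for 61.5% and 61.9% of the very deep peaks, beside 66.3% and 73.8% of all peaks. The median difference in summit distance was 11.5 bp. Very deep peaks were assigned to 110 genes in both lists, 72.8% of the 151 P. alba genes and 79.1% of the 139 P. tremula genes. A peak of any depth in the other list was found at 88.7% and 89.9% of these genes, beside 81.9% and 87.9% of all genes with a peak. Both lists come from the same set of libraries, so agreement between them is not replication. How reads matching both subgenomes were placed is not given in the sources used here, so the same reads may count in both lists.

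Depth in these pairs was similar on average and rarely identical. The 110 pairs were kept because both pileups reached 200 reads. Partners under 200 reads are left out, so the depth figures only describe these pairs. On the log2 scale the P. alba pileup divided by its partner's had a median of 0.01 and an SD over pairs of 0.56. P. alba was higher in 60 pairs and P. tremula in 49, and 1 pair had the same pileup. In the other 12466 pairs of peaks, mostly shallower, 77.3% had identical pileups, and in the 953 pairs of 20 to under 200 reads 40.9%. Small whole numbers coincide more easily than large ones. Whether the same reads were counted in both lists was not tested, so nothing is read from this contrast. Spearman's rho across the 110 pairs was 0.772 for pileup and 0.815 for fold. The pileups differed by more than 1.5 times in 21 pairs (19.1%), 13 of them higher for P. alba and 8 for P. tremula, and the folds differed by that much in 10 pairs. In pairs of 20 to under 200 reads the pileups differed by more than 1.5 times in 12.3%.

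The largest differences went both ways. On chromosome 1, a P. alba promoter peak (5698015 to 5698110) held 279 reads and its P. tremula partner (5698288 to 5698505) 1359, while the folds were 3.76 and 4.08. The distal pair on chromosome 13 named above, with 2456 and 728 reads, went the other way. On chromosome 3 a P. alba peak near a gene start (9372893 to 9373012) held 249 reads against 720, but its fold was the higher, 4.98 against 2.67. The same held on scaffold_56 (83485 to 83889 on P. alba), with 308 against 803 reads and folds of 6.85 against 2.76. On chromosome 12 the 607 P. alba reads stood against 227, with the lower fold of 6.04 against 12.9. Pileup and fold thus ordered the subgenomes differently in 3 of these 5 pairs, which were picked for their difference in pileup.

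**Figure D5:**
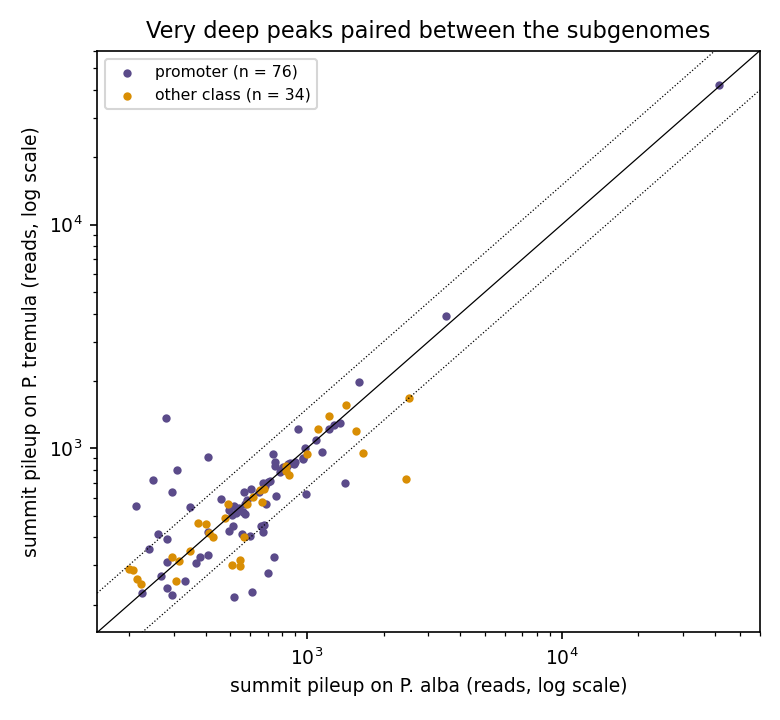
Summit pileup on P. tremula against P. alba, in reads on log scales, for the 110 pairs of very deep peaks, coloured by promoter class (76 pairs) or other class (34 pairs). The solid line marks equal pileup and the dotted lines a difference of 1.5 times, which 21 pairs exceed.

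The other very deep peaks had a shallower partner or none. A partner of 100 to under 200 reads was found for 10 P. alba and 8 P. tremula peaks, and one under 100 reads for 8 and 2. The widest gap was on chromosome 8, where a distal P. alba peak (19001482 to 19001642) held 902 reads with a fold of 6.19 and its partner 16 reads with a fold of 3.63. On chromosome 14 a promoter peak of 632 P. alba reads (16226750 to 16227128) had a partner of 60. No partner was found for 80 P. alba peaks (38.5%) and 74 P. tremula peaks (38.1%), beside 33.7% and 26.2% of all peaks. In 45 of each, the assigned gene carried a very deep peak elsewhere in the other list. In 18 and 15 cases the gene had no peak at all in the other list. The deepest of these on P. alba was in the chromosome 11 locus (7186067 to 7186600, 1931 reads), and on P. tremula in the chromosome 19 locus (3186995 to 3187379, 901 reads). These counts rest on gene assignment and do not show that signal was absent: the exon peaks on chromosome 7 were among the 18 and 15, since they were assigned to different genes in the 2 lists.

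Peaks of 200 reads or more in the excluded chromosome 13 window numbered 124 on P. alba and 126 on P. tremula. They lay closer together, with a median distance to the nearest peak of 647 and 673 bp, against 1185 and 1491 bp for the very deep peaks outside it. Their median background was 286 and 302 reads and their median fold 2.54 and 2.40. In promoter class they held 92.7% and 94.4%. Their genes were short as well, with medians of 851 and 852 bp, and none of them was 249 bp long. These differences were not tested, as peaks of 1 window share their position.

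The recovered backgrounds lay close to whole multiples of a step whose size was fitted to these same peaks. Within a tolerance of 0.1 step, 198 of the 207 P. alba backgrounds above the floor (95.7%) were whole multiples of 0.231 reads, and 183 of 193 on P. tremula (94.8%) were whole multiples of 0.230 reads. Among shallower peaks outside the window with a background above the floor, 84.0% were whole multiples in each list. A tolerance of 0.1 to either side is a wide one, and the source of the step was not tested.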

How the data were processed

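Per the submitters' processing notes, ChIPseeker 1.18.0, MACS2 2.2.7.1 and BWA 0.7.17.2 were used, and the deposited peak names show duplicate marking. For the genome build, the caller's options and its control, the entry is: not given in the sources used here. The 2 deposited tables hold, per the file headers, pileup signal at the summit, fold ratio over a local background and the −log10 q value. Positions are counted from 1. Each peak stood in 2 rows and was counted once. Names carry 1 tag that matches no library, so no ChIP against input test was made. Background was computed as (pileup + 1) / fold − 1, with 1 read taken as the caller's pseudocount. Summit distances used the tables' gene coordinates. Loci joined summits within 20 kb, and pairing allowed 100 bp. The code for locus joining, pairing and background recovery was run on constructed input whose answers were known. Whether the pseudocount or the pairing holds for these lists was not tested. Shares carry exact (Clopper-Pearson) 95% intervals, from scipy 1.17.1 in Python 3.11.15 with pandas 2.3.3.

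The members, lists and rules were chosen with earlier results of these data known. Peaks named are, per list, the 10 deepest, the 5 of highest fold, 3 on each side of the threshold, the 5 largest loci and the 5 pairs differing most in pileup. Peaks named beyond this rule were chosen after their values were seen. No genome or gene description was used here, so that no sequence is shown, the planned gene groups could not be matched, and at most 4 identifiers are printed.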

Additional observations from a re-analysis of the deposited data

How the results depend on the processing

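Of 59 alternative values, 36 stayed within the limits set (1.5 times for counts, the 95% interval for shares and medians) and 23 moved. Causes were not tested unless the construction shows them. At 100 reads or more, P. tremula had 298 peaks in 183 loci, and promoter shares were 58.0% and 57.0%. At 500 or more, 120 and 107 peaks were left in 67 and 54 loci with 59 pairs, as fewer peaks qualify, the P. alba median fold was 3.06 and the P. tremula promoter share 75.7%. A −log10 q of 2 with a fold of 3 or more left 127 and 114 peaks and 53 pairs, with median folds of 4.18 and 3.76, which that cut itself raises. Promoters within 1 kb held 51.4% and 51.5%, and summits up to 3 kb upstream 16.3% and 21.6%. The latter shares have no counterpart over all peaks here. At any distance, upstream summits made up 28.4% and 34.5%, beside 40.5% and 41.0% of all peaks. Pairing within 20 bp gave 70 pairs. With the deepest peak of each locus only, chosen after seeing the data, promoter shares were 55.0% and 58.8%. Leaving out all of chromosome 13, or keeping the 19 chromosomes alone, moved none of the 9 results. No paired analysis was possible because neither list separates the libraries, so that no replicate could be left out either.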
